A study of Caenorhabditis elegans with 2 samples.

Results

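Genes for cytochrome P450s, glutathione transferases and UDP-glucuronosyltransferases were examined for peaks of the nuclear hormone receptor NHR-11 in Caenorhabditis elegans. They were taken by name, as the protein-coding genes whose symbols begin with cyp-, gst- or ugt-, and numbered 185 of 19973 protein-coding genes. There were 74 cyp, 44 gst and 67 ugt genes, and no noncoding gene or pseudogene was among them. Chromatin immunoprecipitation with sequencing (ChIP-seq), in which DNA bound by a protein is pulled down with it and read, was applied to whole L4 larvae, the last larval stage, of both sexes pooled. A single group was studied, with 2 biological replicates of strain OP305, which carries unc-119(ed3) on chromosome III and the insertion wgIs305, by which NHR-11 bears an eGFP tag. The promoter that drives the tagged protein and the presence of untagged NHR-11 are not given in the labels. Since whole animals were used, a peak cannot be placed in a tissue. No list from untagged animals or input DNA was used here, so peaks that need the tagged protein cannot be told apart from others.

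These families carry out the breakdown of foreign compounds and of many internal lipids. Cytochrome P450s add an oxygen to a substrate (phase I). Glutathione transferases join substrates to glutathione, and UDP-glucuronosyltransferases join them to a sugar (both phase II), which makes the products easier to export. In the worm much of this chemistry takes place in the intestine, and nuclear hormone receptors and the stress factor SKN-1 are among the known regulators of these genes.

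The deposited peak lists were of 4 kinds. Each replicate had a list of its own, with 19074 peaks in replicate 1 and 22137 in replicate 2. A pooled list of 13558 peaks was called on both replicates together, and a thresholded list of 2719 was taken from it by the authors for reproducibility between the replicates. The pooled list and both replicate lists were deposited under the title of peaks and background. An entry found only in them is called a peak here, but it may be background and need not be a bound site. Thresholded peaks were those with a pooled signal of 54.9 or more, in a list that ran between 21.6 and 1107.6 with a median of 30.6. Signal is the authors' measure of a peak's strength, on a scale that is not stated, and it is set side by side only within a list. Ranks count from 1 at the strongest peak of a list. A gene was counted as having a peak where the summit, the peak's highest point, lay within 1000 bp upstream to 200 bp downstream of the annotated gene start. The lists hold no read counts, so depth is unknown, and the 95% Clopper-Pearson intervals given here cover the counting of genes only. Neighbouring genes of a family are not independent.

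The DNA under the strongest peaks is shown first, since the results turn on these few sites. It is printed on the gene's strand from the RefSeq sequence of build WBcel235, the same sequence as ce11, with annotated UTR bases left out. Capitals mark matches, on either strand, to motifs named further on. The first group gives the 4 thresholded summits that lay upstream of a gene start, each with 50 bp on both sides, at gst-27 (chrII:15166005-15166105, minus strand), gst-5 (chrII:10950196-10950296, plus strand), gst-7 (chrII:4881865-4881965, plus strand) and cyp-13A5 (chrII:9800421-9800521, minus strand).

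gst-27: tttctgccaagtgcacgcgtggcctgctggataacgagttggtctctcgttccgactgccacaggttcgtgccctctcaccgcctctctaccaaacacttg

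gst-5: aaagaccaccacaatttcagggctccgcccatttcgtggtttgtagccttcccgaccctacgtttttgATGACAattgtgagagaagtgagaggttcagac

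gst-7: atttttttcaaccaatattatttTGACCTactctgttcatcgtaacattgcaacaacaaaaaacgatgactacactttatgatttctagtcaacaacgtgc

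cyp-13A5: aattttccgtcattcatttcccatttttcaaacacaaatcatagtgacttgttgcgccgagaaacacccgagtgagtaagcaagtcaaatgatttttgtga

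The summits of cyp-13A2 and cyp-33C8 lay just inside the annotated 5′ UTR, so the bases of the same peaks directly upstream of the gene start are given, at chrII:9787630-9787730 and chrV:3803543-3803643, both on the minus strand.

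cyp-13A2: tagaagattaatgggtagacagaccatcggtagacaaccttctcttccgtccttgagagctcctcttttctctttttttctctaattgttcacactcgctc

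cyp-33C8: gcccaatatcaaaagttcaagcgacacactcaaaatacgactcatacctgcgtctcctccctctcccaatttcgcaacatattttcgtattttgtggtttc

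For the ugt genes, which had no thresholded peak, the strongest pair of pooled peaks is shown: ugt-50 around its summit (chrX:12691503-12691572, plus strand) and ugt-58 directly upstream of its start (chrII:9586785-9586885, minus strand).

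ugt-50: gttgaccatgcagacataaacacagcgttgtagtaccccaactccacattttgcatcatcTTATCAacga

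ugt-58: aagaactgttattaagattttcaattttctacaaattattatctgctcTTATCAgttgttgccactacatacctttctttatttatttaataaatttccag

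Few of these detoxification genes carried a strong NHR-11 peak. A thresholded summit lay in the promoter window of 6 of 185 genes (3.24%, 95% interval 1.2 to 6.93%), against 8.28% of all protein-coding genes. They were 3 of 74 cyp genes (4.05%, interval 0.844 to 11.4%), 3 of 44 gst genes (6.82%, 1.43 to 18.7%) and 0 of 67 ugt genes, a count that allows a share of up to 5.36%. The upper bounds of all members together and of the ugt genes were below the background share, and the cyp and gst intervals held it. These readings depended on the setting. The members' count of 6 was unchanged with a window of 500 bp upstream and 100 bp downstream, or with nearest starts only. The background was then 6.43% and 6.28%, inside the members' interval, and the gst share of 6.82% was above it. Among the stronger 1359 thresholded peaks, 4 members (2.16%) had a summit. The background was then 4.59%, below the ugt upper bound of 5.36%. With a window of 2000 bp upstream the gst count was 6 (13.6%), above the background of 11.2%. No test of these differences was made.

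Counted over peaks of any strength, the share of these genes was close to the background. A pooled summit was found at 52 of 185 genes (28.1%, interval 21.8 to 35.2%), against 25.3% of all protein-coding genes. The families were close to each other, with 20 cyp genes (27%), 13 gst genes (29.5%) and 19 ugt genes (28.4%), and each interval held the background share. In replicate 1's own list 66 members had a summit (35.7%, interval 28.8 to 43%), against 30.4% of all genes. In replicate 2's own list there were 63 (34.1%, interval 27.3 to 41.4%), against 33.8%. A summit in both replicate lists was present at 38 members (20.5%, interval 15 to 27.1%), against 21.3%. At 94 of 185 members (50.8%) no list held a summit, and this was so for 56.9% of all protein-coding genes.

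**Figure D1:**
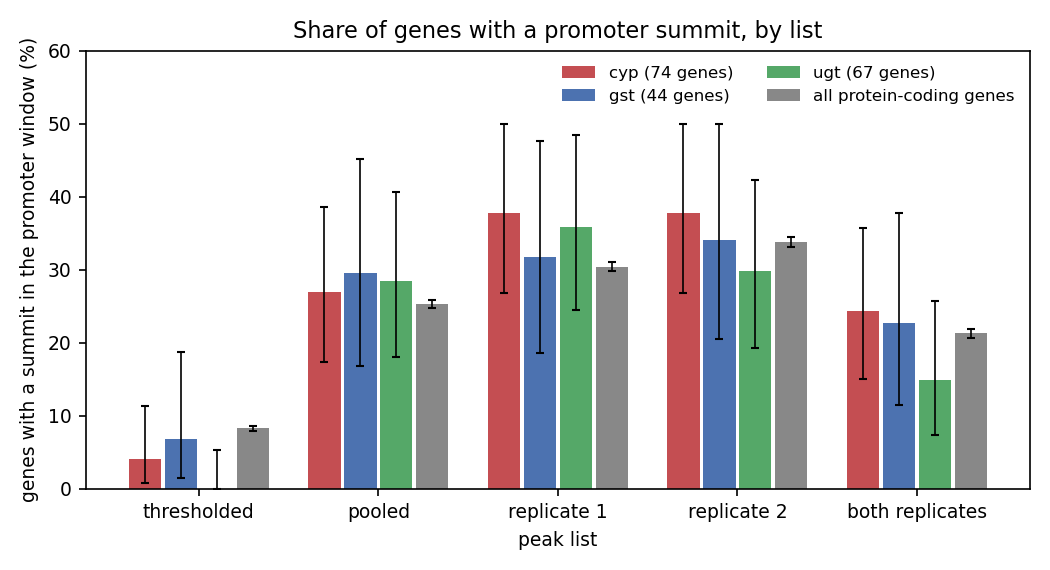
Share of genes with a summit in the promoter window (y axis, percent) in each peak list (x axis) for the 74 cyp, 44 gst and 67 ugt genes and for all protein-coding genes. Bars are shares and lines are 95% Clopper-Pearson intervals; in the thresholded list the ugt bar is at 0 and all genes are at 8.28%, while in the pooled list the 4 bars lie between 25.3 and 29.5%.

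Among the P450 genes, which act first on a compound, cyp-13A2 had the strongest peak. Its signal was 134.4 in the pooled list (rank 559), 76.3 in replicate 1 (rank 411) and 57.2 in replicate 2 (rank 812). The summit was at position 9787578 of chromosome II, 51 bp downstream of the gene start and in its 5′ UTR. For cyp-33C8, on chromosome V, the signal was 98.9 in the pooled list (rank 1003), 56.3 in replicate 1 and 43.5 in replicate 2. Its summit at 3803512 lay 30 bp downstream of the start, again in the 5′ UTR. For cyp-13A5 the pooled signal was 63.5 (rank 2180), the lowest of the 6 thresholded genes, and the replicates differed in rank: 16.8 in replicate 1 (rank 6861) and 40.3 in replicate 2 (rank 1574). Its summit at 9800471 of chromosome II was 109 bp upstream of the start, in intergenic sequence.

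Both cyp-13A peaks belong to a tandem cluster of 8 cyp-13A genes on chromosome II, cyp-13A1 to cyp-13A8. From the start of cyp-13A2, the thresholded summit of cyp-13A5 was 12842 bp away, and the pooled summits between them, inside or beside cyp-13A3 and cyp-13A4, had signals of 30.1 and 27.1. The other cluster genes had no thresholded peak in their windows. At cyp-13A1 a pooled summit 944 bp upstream had a signal of 35, with the start of another gene, T10B9.14, nearer to it, and a summit 48 bp into the gene had 25.6. At cyp-13A7, known for its induction by the drug rifampicin, the sole summit in the window was in replicate 1's list, 515 bp upstream, with a signal of 12 (rank 14781). It was also in the window of cyp-13A6, whose start was nearer, at 284 bp, and a pooled summit of 27.6 lay inside the body of cyp-13A7.

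**Figure D2:**
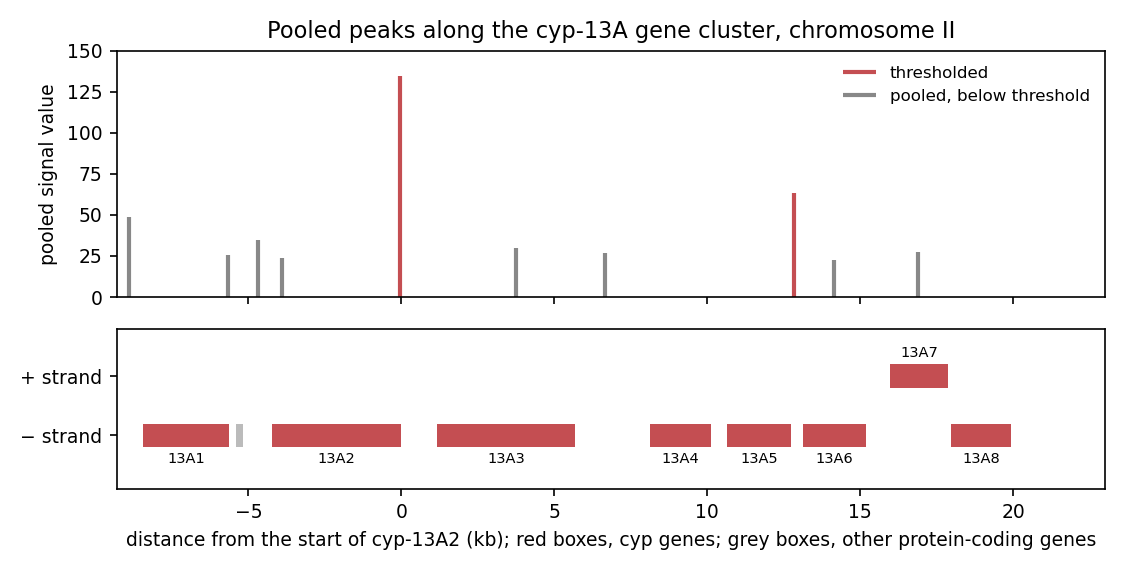
Pooled peaks along the cyp-13A cluster: the x axis is the distance from the start of cyp-13A2 in kb, the upper panel's y axis is the pooled signal value at each summit, and boxes in the lower panel are genes on each strand. The peaks of cyp-13A2 (134.4) and cyp-13A5 (63.5) are the 2 thresholded ones in the stretch drawn, and the others drawn are below 54.9; a further thresholded peak of 59.7, at position -13282 bp on the same axis, lies outside it and outside the cluster.

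The remaining cyp peaks were below the threshold. The strongest were at cyp-33B1, with summits 889 bp and 313 bp upstream of its start. The first had a signal of 48.2 in the pooled list, 22.6 in replicate 1 and 25.6 in replicate 2, and the other had 42.1, 20.2 and 22.4 in the same lists. With 48.2, cyp-33B1 was the member nearest to the threshold from below, and cyp-13A5 with 63.5 was the nearest from above. A summit of 40.9 on chromosome V lay between the divergent genes cyp-33C7 and cyp-33C6, 144 bp and 986 bp upstream of their starts, so it cannot be given to one of them. It had a signal of 32.1 in replicate 2, and replicate 1's list had no summit there. At cyp-35A2, an often used marker of xenobiotic response, a summit 890 bp upstream had 40.9 in the pooled list, 16.3 in replicate 1 and 23.8 in replicate 2, and the start of exc-13 was nearer, at 179 bp. For cyp-14A3, another xenobiotic-induced P450, no list held a summit.

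By subfamily, pooled summits were found at 8 of 18 cyp-33 genes, 4 of 13 cyp-13 genes, 4 of 10 cyp-35 genes and 1 of 8 cyp-34 genes, beside 25.3% of all protein-coding genes, and cyp-33C6 and cyp-33C7 shared a summit. A summit in both replicate lists was found at 6 cyp-33, 4 cyp-13, 2 cyp-35 and 3 cyp-34 genes, beside 21.3% of all protein-coding genes. None of the 5 cyp-25 or 3 cyp-31 genes had a summit in the pooled list or in both replicate lists. Of the 18 cyp genes with a summit in each replicate's list, 4 had none in the pooled list. The same held for 0 of 10 gst genes, 0 of 10 ugt genes and 318 of 4251 protein-coding genes in all. At cyp-34A1 the signals were 13.6 in replicate 1 and 10.4 in replicate 2. At cyp-33C9 they were 13 and 19.5 in the same order, at cyp-34A9 they were 10.8 and 10.2, and at cyp-29A3, which takes part in making eicosanoid signals, they were 10.8 and 12.9. At cyp-33C9 and cyp-34A9 the replicates' summits were far apart within the window, at 673 and 250 bp upstream of cyp-33C9 and at 88 bp downstream and 688 bp upstream of cyp-34A9.

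All 3 thresholded gst peaks were on chromosome II and upstream of their genes. For gst-27 the signal was 100.4 in the pooled list (rank 974), 39.4 in replicate 1 (rank 1517) and 57.8 in replicate 2 (rank 800), with the summit at 15166055, 324 bp upstream. This summit was 27 bp from a snoRNA gene, Y53F4B.48, on the same strand, at 15165894 to 15166028, and 29 bp from the noncoding gene Y53F4B.58 on the opposite strand, so both were nearer to it than the start of gst-27. For gst-5 the signal was 93.4 in the pooled list, 31.3 in replicate 1 and 61.2 in replicate 2, with the summit at 10950246, 106 bp upstream. For gst-7 it was 78.1, 31.8 and 45.3 in the same lists, with the summit at 4881915, 147 bp upstream. All 3 ranked higher in replicate 2 than in replicate 1. No protein-coding gene other than the member had any of the 6 thresholded summits in its window.

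Below the threshold, the strongest gst peak was in the window of gst-36 on the X chromosome. It had a signal of 41.2 in the pooled list, 18.4 in replicate 1 and 23.4 in replicate 2, and it lay 626 bp upstream of gst-36 but 6 bp from the start of R07B1.5. The next were gst-33, with 35.9 in the pooled list and 26.9 in replicate 2 and no summit in replicate 1, and gst-9, with 33.7, 19.8 and 16.3. At gst-4, widely used as a reporter of oxidative stress, no list held a summit. The same was true of gst-10, whose enzyme conjugates products of lipid peroxidation.

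No ugt gene had a thresholded summit in its window or its body, and the thresholded summit nearest to any of them was 2981 bp from the start. Their strongest peaks were at ugt-50 and ugt-58. At ugt-50, on the X chromosome, the summit was 20 bp upstream of the start with a signal of 38.5 in the pooled list (rank 4702) and 20 in replicate 1, and replicate 2's list had no summit there. At ugt-58, on chromosome II, it was 3 bp downstream with 38.4 in the pooled list (rank 4731), 24.6 in replicate 1 and 15.4 in replicate 2. A summit on chromosome V lay 122 bp upstream of ugt-9 and 855 bp upstream of ugt-11, with 37.3 in the pooled list, 15.4 in replicate 1 and 20.3 in replicate 2. The 19 ugt genes with a pooled summit ran between 21.8 and 38.5, so none came near 54.9. For ugt-22, tied to resistance to the drug albendazole, no list held a summit. The median distance of ugt genes to the nearest thresholded summit was 20837 bp, against 16148 bp for all protein-coding genes.

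**Figure D3:**
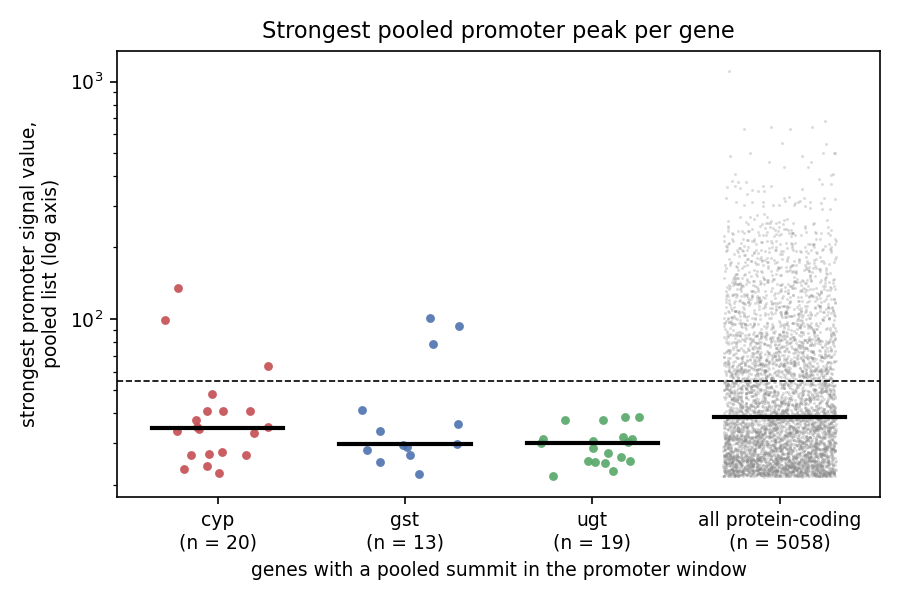
Signal of the strongest pooled peak in the promoter window (y axis, log scale) for each gene that had one: 20 cyp, 13 gst and 19 ugt genes, and 5058 protein-coding genes in all. Points are genes, thick lines are medians (34.7, 29.6, 29.9 and 38.5) and the dashed line is the lowest thresholded signal, 54.9; all ugt points are below it.

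The peaks of these genes had a lower median signal than those of promoters in general, a difference that was not tested. The strongest pooled peak per gene had a median signal of 30.8 over the 52 members and 38.5 over all 5058 genes with a pooled summit. The 52 members had 56 distinct summits, of which 6 (10.7%) were thresholded, against 28.3% of 4587 promoter summits. The deposited −log10 q value, higher for stronger evidence, was low at most member summits below the threshold. It ran there from 1.64 at cyp-33B1 to 0.02 at ugt-56, with 0.88 at ugt-50, against 2.46 at cyp-13A5, which was thresholded. Of the 50 member summits below the threshold, with a median of 29.2, 29 (58%) had a summit in both replicate lists. The share over all 3287 promoter summits below the threshold was 60.2%, with a median of 29.6, a value close to that of the members. Counted by gene, a summit in both replicates was present at 18 cyp, 10 gst and 10 ugt genes, which is 47.4%, 52.6% and 29.4% of those with a summit in either replicate. The value over all protein-coding genes was 49.6%, and the lower value at ugt genes was not tested.

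**Figure D4:**
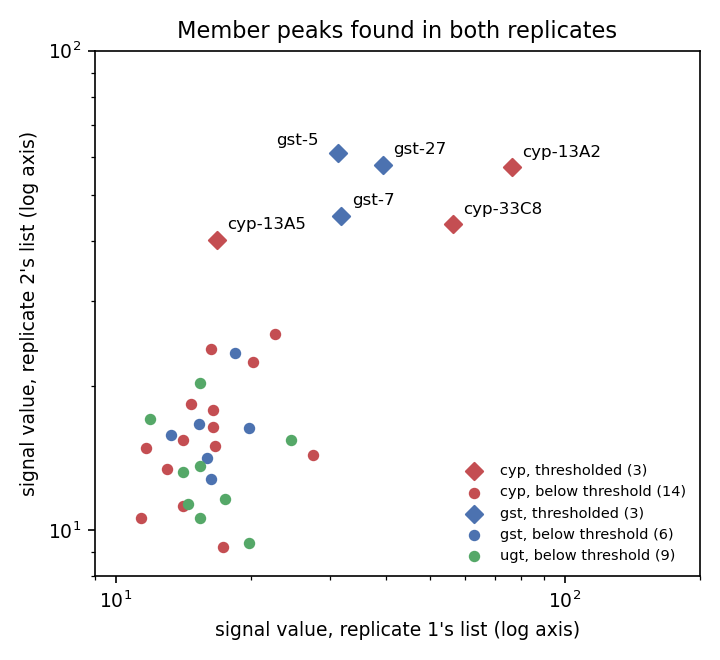
Signal in replicate 2's list (y axis) against signal in replicate 1's list (x axis), both on log scales, for the 35 member peaks of the pooled list with a summit in both. Diamonds are thresholded peaks, labelled by gene, and circles are peaks below the threshold; the 6 diamonds have 40.3 or more in replicate 2, above every circle, and cyp-13A5 has 16.8 in replicate 1, within the range of the circles.

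Member summits lay close to the gene start. The median position of the strongest pooled summit was 109 bp upstream for the 52 members, written -109, and -252.5 for all protein-coding genes with one. It was within 200 bp of the start at 37 members (71.2%), against 42% of all such genes. It was upstream at 37 members (71.2%), against 89.8%, and the other members had it at or downstream of the start. Of the 56 member summits, 10 (17.9%) were in a 5′ UTR and 8 (14.3%) in coding exons, such as those of cyp-33C5, cyp-35B2 and cyp-35B3, against 6.52% and 7.91% of all promoter summits. In gene bodies outside the window, 0 of 185 members had a thresholded summit, against 2.94% of all genes, and 16 (8.65%) had a pooled one, against 17.3%.

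**Figure D5:**
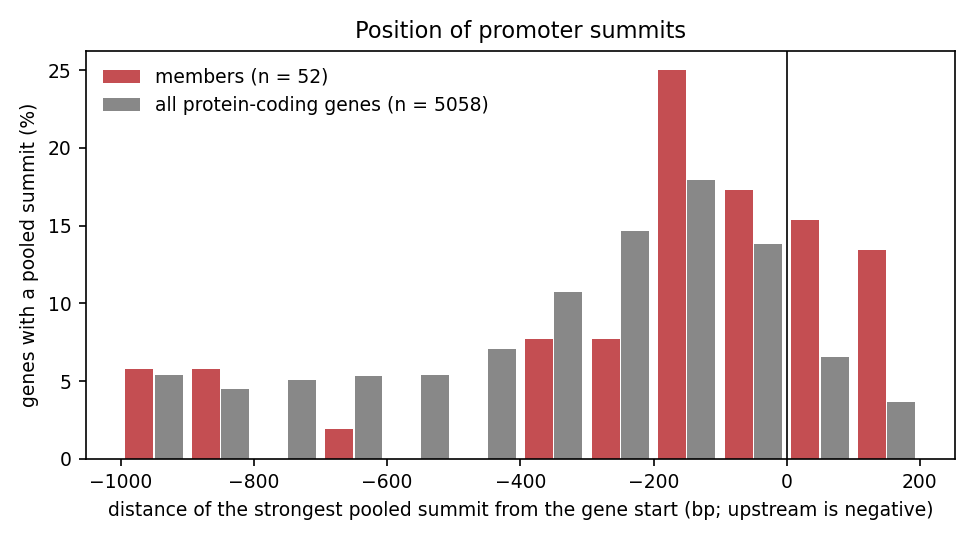
Distance of the strongest pooled summit from the annotated gene start (x axis, bp, upstream negative) as a share of genes with a pooled summit (y axis, percent), in bins of equal width, for 52 members and 5058 protein-coding genes. The vertical line is the gene start. The tallest member bar is upstream of it but is not the bar next to it, and the median is -109 for members and -252.5 for all genes.

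The members are unevenly placed in the genome. Chromosome V held 92 of them (49.7%), against 25% of all protein-coding genes, and chromosome II held 38 (20.5%), against 17.3%. On chromosome V, 1 member (1.09%) had a thresholded summit, cyp-33C8, against 5.41% of all genes there, and 26 (28.3%) had a pooled one, against 20.7%. On chromosome II, 5 members (13.2%) had a thresholded summit, against 8.64% of all genes there. The 8 members on chromosome I, 10 on III, 23 on IV and 14 on X had none. Of all genes there, 11%, 11.3%, 7.07% and 8.68% had one in the same order, so few were to be looked for among so few members. The part of chromosome in the low count of thresholded members was not tested.

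Many members stand in tandem arrays, where near-identical copies could share reads. How reads with several matches were treated is not stated. The median share of 36-base words found once in the genome was 100% for members and 100% for all genes. Its lower quartile was lower for members, 95.7% against 98.5%, and was 93.7% for gst genes. The share was under 50% at 3 members (1.62%), against 3.07% of all genes, and 2 of the 3 were gst genes (4.55% of that family). Without those 3, the thresholded count was 6 of 182 (3.3%), against 8.53% of all protein-coding genes left by the same rule. Of 106 members with another member's start within 10 kb, 4 (3.77%) had a thresholded summit and 27 (25.5%) a pooled one. Of the other 79, 2 (2.53%) had a thresholded summit and 25 (31.6%) a pooled one.

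The DNA of the promoters was searched on both strands for motifs of regulators known in these pathways. TGATAA, bound by GATA factors such as the intestinal ELT-2, was present in the 250 bp before and 50 bp after the start at 46 of 67 ugt genes (68.7%), 32 of 74 cyp genes (43.2%) and 14 of 44 gst genes (31.8%), against 30.3% of all protein-coding genes. TGTCAT or TATCAT, the core read by SKN-1, was present at 28 gst genes (63.6%), 32 ugt genes (47.8%) and 27 cyp genes (36.5%), against 32.4%. Both motifs can share bases, since ATGATAA holds TGATAA and the reverse complement of TATCAT. The median GC content of the promoter windows was 34% for members and 35% for all genes. AGGTCA, a half-site of many nuclear receptors, was present at 17 members (9.19%), against 8.29%. By family it was at 7 gst genes (15.9%), 8 cyp genes (10.8%) and 2 ugt genes (2.99%), differences that were not tested.

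Around the summits themselves, within 50 bp, TGATAA was found at 12 of 56 member summits (21.4%), against 8.7% of all promoter summits. Of the 12, 10 were at ugt genes, out of 21 ugt windows (47.6%), among them ugt-50, where it lay 12 bp from the summit and is the capital stretch in the sequence shown, and ugt-9 with ugt-11. It was present at 2 of 22 cyp windows and 0 of 13 gst windows. The match at ugt-58 is not among the 12. By gene, TGATAA was present in the promoters of 13 of 19 ugt genes with a pooled summit (68.4%) and 33 of 48 without one (68.8%). Among the 6 thresholded windows, gst-5 held ATGACA, the reverse complement of TGTCAT, gst-7 held TGACCT, the reverse complement of AGGTCA, and the other 4 held none of the 8 motifs searched. AGGTCA was found at 2 of 56 member summits (3.57%), against 2.96% of all promoter summits. In direct repeat, 2 such half-sites with 1 base between them were found at no member summit. The same repeat was found at 0 of all 13558 pooled summits, so its absence is not particular to members. GAGAGAG was found at 0 of the 6 thresholded member summits, against 14.8% of all thresholded summits, and at 2 of the 56 pooled member summits (3.57%), against 6.98% of all promoter summits. These matches describe the DNA and do not show binding.

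Genes that supply, regulate or follow these enzymes were examined by the same rule, as 104 genes in lists by role. A thresholded summit was present at 13 of them (12.5%, interval 6.83 to 20.4%), against 8.28% of all protein-coding genes, and a pooled one at 39 (37.5%), against 25.3%. Of the P450 electron donors, cytb-5.1, a cytochrome b5, had a thresholded summit 242 bp upstream with a pooled signal of 61.0 and 41.4 in replicate 1, while replicate 2's summit in the window, of 22.5, was at -54 bp and outside that peak, and emb-8, the P450 reductase, had 31.6 in the pooled list. Of the genes of glutathione supply, gss-1, for glutathione synthetase, had 109.2 in a peak nearer to chch-3, and gsr-1, for glutathione reductase, had 80.0 in a peak that madf-8 shared. For gcs-1, the first step of glutathione synthesis, the pooled list held no summit, and the replicates had weak ones apart from each other, of 11.2 at 64 bp downstream in replicate 1 and of 13.3 at -475 bp in replicate 2. Of 13 regulators, wdr-23, which holds SKN-1 in check, had 196.0 and nhr-49, a receptor of fat metabolism, had 116.6, while skn-1 had no summit in any list.

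Other phase I enzymes, the flavin monooxygenases and the aldehyde and short-chain dehydrogenases, had 6 thresholded genes of 48 (12.5%), beside 8.28% of all protein-coding genes: dhs-25, alh-8, dhs-9, dhs-8, alh-9 and alh-12, with signals of 104.5, 109.3, 99.7, 89.0, 82.8 and 72.8 in that order. The windows of other genes also held the summits of dhs-25 (D1005.10 and D1005.4) and alh-9 (cct-6). The exporters, transporters of the pgp-, mrp- and haf- families, had 2 of 30 (6.67%), mrp-2 with 137.8 and haf-3 with 131.7 in a peak nearer to F57A10.2. The 6 genes of these enzyme classes with other names, the P450 daf-9 and the gsto- and gstk- transferases, had no thresholded summit, and daf-9, which makes a hormone ligand of a nuclear receptor, had no summit in any list.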

How the data were processed

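ChIP-seq of eGFP-NHR-11 gave 1 peak list for each of 2 replicates (numbered biological replicates in the labels), 1 pooled and 1 thresholded, in build ce11. The authors deposited for each peak a signal value, used for strength and rank, and a −log10 q value. The latter was not used for rank because strong peaks share a value, as cyp-13A2 and gst-7 do with 3.52. Per the texts deposited with the files, the thresholded list comes from the irreproducible discovery rate (IDR); its threshold, the aligner and the caller with its version were not given in the sources used here. Depth is unknown, as the lists hold no read counts.

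Summits were placed against Ensembl 115 gene starts (Python 3.11.15, NumPy 2.4.6, pandas 2.3.3, SciPy 1.17.1), in steps tested on simulated summits. A summit was called present in a replicate where that replicate's summit lay inside the pooled peak, or, for counts by gene, inside the window. Counts carry 95% Clopper-Pearson intervals, without tests. Members and lists were chosen with earlier results of these data known. Named genes were all with thresholded summits, the 4 strongest of each family, members found by both replicates but not the pooled list, widely studied members, and related genes with thresholded summits or known key roles; other cluster genes, cyp-33C6, cyp-33C7, gst-33, gst-9, cyp-35B2, cyp-35B3, cyp-33C5 and cyp-13A1 among them, were chosen after their values were seen. Alternatives covered the window, gene starts, nearest-gene assignment, peak middle or overlap, stronger peaks, and leaving out each replicate.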

Additional observations from a re-analysis of the deposited data

How the results depend on the processing

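Of 71 counts recomputed under alternatives, 66 stayed within 1.5 times the value reported. This covers the counts only, while the background share also changed with the setting. Among the 66 were thresholded ugt counts of 0, most of which could not have changed. A window of 2000 bp upstream moved the thresholded counts to 5 cyp genes, 6 gst genes and 11 members in all (5.95%, against 11.2% of all protein-coding genes). The gst share then turned to above the background, 13.6% against 11.2%, where it was 6.82% against 8.28% before. At an unchanged count, it was also above with a window of 500 bp upstream and 100 bp downstream, 6.82% against 6.43%. With nearest starts only it was 6.82% against 6.28%. At both settings the interval of all members held the background. The wider window added gst-8, gst-26, gst-39, cyp-37A1 and cyp-36A1. Leaving out a replicate, by taking as many strongest peaks of the other's own list, gave 5 cyp genes without replicate 1 (6.76%) and 2 without replicate 2 (2.7%). Without replicate 1, cyp-33C7 and cyp-33C6, which share a summit, were added, for 8 members in all (4.32%, against 8.26% of all protein-coding genes). Without replicate 2, cyp-13A5 was lost, leaving 5 members (2.7%, against 8.04%). Among the strongest 2719 peaks of each replicate, 5 members had a summit in both (2.7%, against 6.33%), and cyp-13A5 was the thresholded gene missing. The ugt count of thresholded genes was 0 under every alternative run, but most of these could not have given another value. A narrower window, nearest starts only or stronger peaks cannot raise a count of 0. The window of 2000 bp could not either, since the nearest thresholded summit was 2981 bp from a ugt start. No paired analysis was possible because the study has a single group. Limits are the absence of control lists and of read counts, the unstated signal scale, and the assignment of summits by distance alone.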
